A study of Mus musculus with 2 samples.

Results

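The genes described here make sterols, fatty acids and triglycerides. They are 41 of the 49492 genes in the count table and were chosen by name, with earlier results of these data known. Of these, 22 genes belong to the cholesterol branch and 19 genes to the fatty acid and triglyceride branch. Not every enzyme of these pathways is among them. Mammary basal cells were sorted from wild-type adult female mice and cultured in matrix gel for 11 to 14 days, either alone with no treatment (ctrl) or co-cultured with M2-like macrophages (M2). Per the study's methods, the macrophages came from bone marrow, were polarised with Il-4 and Il-13, sat in a transwell chamber above the gel and were renewed during the culture. The methods give 1 common medium for such cultures, with EGF and an ITS supplement, which contains insulin. RNA of the colonies and organoids was sequenced, with 1 library per group and no replicates, so each difference below is one between these libraries and no test against the spread between cultures could be made. Whether 1 mouse or several gave the cells is not stated.

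Cholesterol and fatty acids are both built from cytosolic acetyl-CoA. In the cholesterol branch, acetyl-CoA is condensed to a branched intermediate that is reduced to mevalonate, mevalonate becomes isoprenoid units, these are joined to squalene, and squalene is closed into a ring and trimmed to cholesterol. In the other branch, acetyl-CoA carboxylase and fatty acid synthase make saturated chains, which are lengthened by elongases, given double bonds by desaturases and joined to glycerol as triglyceride. Transcription of both branches is driven by the sterol regulatory element binding proteins, membrane-bound factors that Scap escorts out of the endoplasmic reticulum when sterols are low and that Insig1 holds back when sterols are high. Srebf2 is known mainly for sterol genes and Srebf1 mainly for fatty acid genes. In the mammary gland these pathways supply milk fat during lactation and membranes during growth.

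Promoter sequence was examined because these factors bind DNA together with NF-Y, the factor of the CCAAT box. RefSeq promoter windows (GRCm38.p6, 250 bases before to 50 after each gene start) were matched for 32 of the 41 genes by symbol. The 5 letters CCAAT, on either strand, were found in at least 1 window of 16 of 18 cholesterol genes (88.9%) and of 9 of 14 fatty acid and triglyceride genes (64.3%), against 42.2% of 11817 genes with enough reads and 41.1% of all 27025 genes in that table. A pair or more of such matches was found in 9 of the 18 cholesterol genes and 4 of the 14 others (28.6%), against 17.8% of genes with enough reads. Matches were summed over all windows of a gene. Dhcr7 and Srebf1, each with 2 matches over 3 windows, may thus not hold a pair in 1 promoter. The sterol response element, searched as TCACNCCAC on both strands, was found in 1 of the 32 genes (3.125%), namely Hmgcs1, against 1.40% of genes with enough reads. The E-box form TCACNTGA was found in 1 gene, Thrsp, against 4.72%. No letters are shared between the CCAAT search and the other searches in the stretches printed here. A match is a string of letters and not a measured binding site. Only these exact strings were searched, so a gene without a match is not shown to lack a site.

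The 250 bases before the start are shown for Hmgcs1 (chr13:119690101-119690350, plus strand), the only gene with a sterol response element match, for Mvd (chr8:122443423-122443672, minus strand) and Sc5d (chr9:42264301-42264550, minus strand), which were among the genes with the largest differences of the cholesterol branch, and for Mvk (chr5:114444019-114444268, plus strand), which had the most CCAAT matches of the 32 genes and nearly equal levels in both libraries. Capitals mark TCACNCCAC and CCAAT, the latter read as ATTGG where the match is on the other strand.
Hmgcs1: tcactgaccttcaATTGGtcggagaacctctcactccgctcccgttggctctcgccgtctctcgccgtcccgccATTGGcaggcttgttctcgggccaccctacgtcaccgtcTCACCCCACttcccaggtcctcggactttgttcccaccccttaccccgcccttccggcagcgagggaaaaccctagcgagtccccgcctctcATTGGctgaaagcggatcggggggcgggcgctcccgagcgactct
Mvd: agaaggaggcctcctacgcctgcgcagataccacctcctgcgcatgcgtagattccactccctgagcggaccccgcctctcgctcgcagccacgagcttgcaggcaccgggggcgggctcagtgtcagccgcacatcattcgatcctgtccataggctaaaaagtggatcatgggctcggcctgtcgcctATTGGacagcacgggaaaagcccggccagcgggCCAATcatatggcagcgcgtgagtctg
Sc5d: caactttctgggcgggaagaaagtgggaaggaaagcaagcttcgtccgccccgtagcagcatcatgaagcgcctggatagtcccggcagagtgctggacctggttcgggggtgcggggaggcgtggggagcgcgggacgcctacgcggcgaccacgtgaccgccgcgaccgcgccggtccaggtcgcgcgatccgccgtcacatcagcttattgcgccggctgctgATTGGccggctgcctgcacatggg
Mvk: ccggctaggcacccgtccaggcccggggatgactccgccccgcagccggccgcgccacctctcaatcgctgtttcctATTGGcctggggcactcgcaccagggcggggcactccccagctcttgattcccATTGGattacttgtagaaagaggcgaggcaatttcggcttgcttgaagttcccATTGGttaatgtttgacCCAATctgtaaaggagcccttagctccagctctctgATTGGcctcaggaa
The stretch of Hmgcs1 holds 1 sterol response element match, which begins 137 bases before the start, and 3 CCAAT matches. Starts here are those of RefSeq, and for Hmgcs1 and Sc5d they differ from the gene starts in the count table. The stretches of Mvd, Sc5d and Mvk hold 2, 1 and 5 CCAAT matches. These 4 genes were chosen for their matches or their differences, so no relation of matches to differences can be read from them.

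Reads counted in genes summed to 26912610 for ctrl and 29413844 for M2. Values are given as reads, as CPM (reads relative to the library size, scaled by the trimmed mean of M values, TMM), and as a log2 fold difference, M2 over ctrl, with a 95% interval that covers counting error only. Per the study's flow cytometry, such colonies and organoids held mostly luminal cells in both groups, with a larger basal share in M2. Markers of the sorted cell type were present, with 3748 to 81991 reads in ctrl and 1920 to 83619 in M2 over 10 basal genes. Their median log2 fold difference was -0.01, with 2 genes at least 2-fold higher and 1 lower. Beside this and the marker counts below, 9.53% of all genes with at least 10 reads were at least 2-fold higher and 7.82% lower. Luminal markers were present too, and 5 of 10 were at least 2-fold lower in M2 and 0 higher, with a median of -0.94 and summed reads of 109797 and 94667. Fewer cells of a type and less RNA per cell cannot be told apart in such libraries, and the part of the luminal difference in the values below was not tested. Of 10 adipocyte markers, 6 had 3 reads or fewer in each library, among them the defining genes Adipoq (2 and 0 reads) and Plin1 (1 and 0 reads). The other 4 were Lep (198 and 6 reads) and Fabp4 (62 and 10 reads), both at least 2-fold lower in M2, Slc2a4 (461 and 357 reads) and Lipe (177 and 243 reads). The summed reads of these other 4 genes were 898 and 616, and the part of adipocyte RNA in the values below was not tested. Of 10 macrophage markers, 6 in ctrl and 5 in M2 had 3 reads or fewer, and Adgre1, Tyrobp and Fcer1g had 0 in both. The 4 macrophage genes with at least 10 reads over both libraries had summed reads of 1774 and 2356. Most of these came from Arg1 (1507 and 2090 reads), which is not restricted to macrophages. The part of macrophage RNA in the values below was not tested. Fibroblast markers were present, and 4 of 8 were at least 2-fold lower in M2 and 1 higher, with summed reads of 9316 and 4120, and their part was not tested either.

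The data show a modest difference of most cholesterol genes in one direction, whereas most fatty acid and triglyceride genes differed little and a few stood far apart from them. The median log2 fold difference was 0.50 over the 22 cholesterol genes, a 1.41-fold higher level in M2, and 0.09 over the 19 fatty acid and triglyceride genes, a 1.06-fold higher level. The difference between the medians was 0.41. Over all 19233 genes with at least 10 reads the median was -0.0032 and the quartiles were -0.32 and 0.35, so the upper quartile of all genes lay below the median of the cholesterol branch. All 41 genes had at least 10 reads. Since genes are not replicates, the medians carry no p-value.

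**Figure D1:**
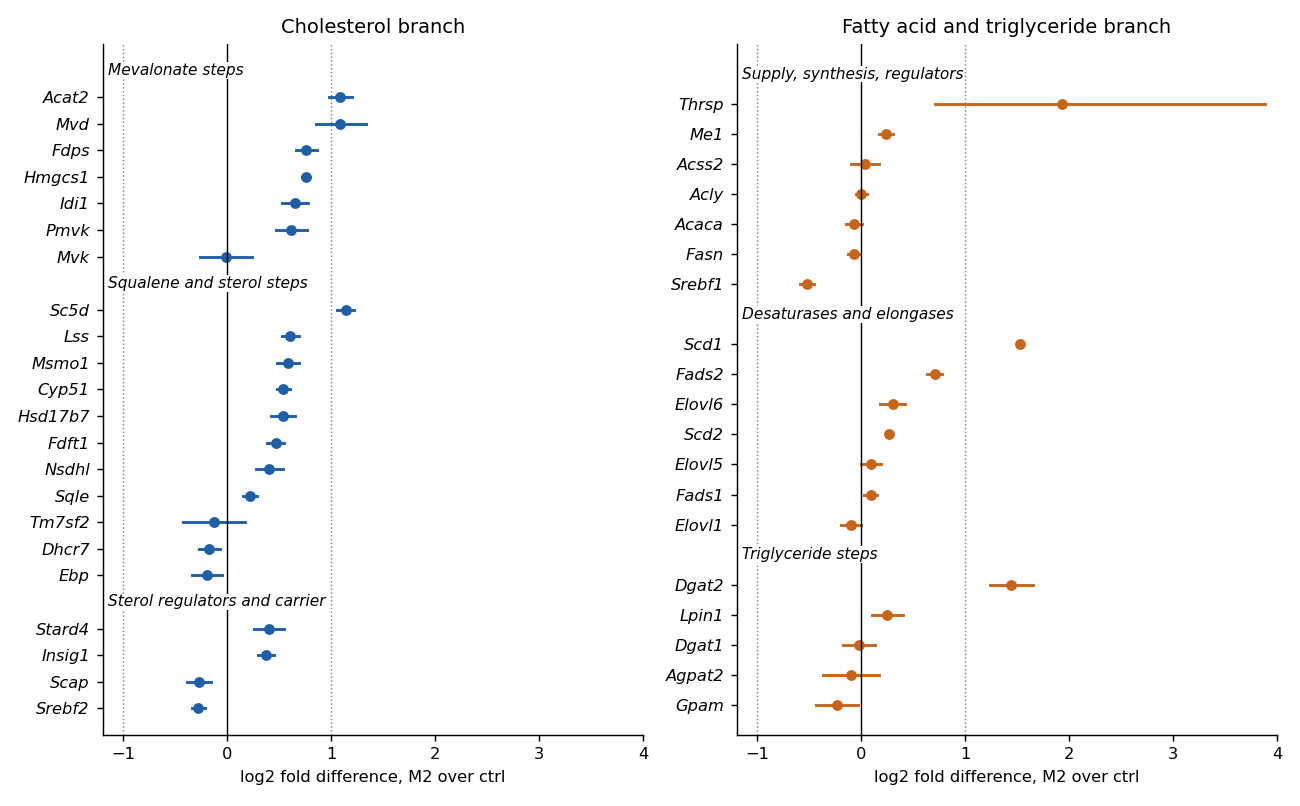
Log2 fold difference, M2 over ctrl, of the 22 cholesterol genes (left) and the 19 fatty acid and triglyceride genes (right), 1 library per group, grouped by step. Points are the values, bars are 95% counting intervals (hidden by the point where narrow), and dotted lines mark a 2-fold difference. Most cholesterol enzymes sit between 0.2 and 1.2, whereas most of the other branch sits around 0, with Thrsp, Scd1, Dgat2 and Fads2 well above it and Srebf1 below it at -0.52.

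At least a 2-fold higher level in M2 was found for 6 of the 41 genes (14.6%), against 9.53% of all genes tested, and at least a 2-fold lower level for 0, against 7.82%. The 6 genes were Acat2, Mvd and Sc5d of the cholesterol branch and Thrsp, Scd1 and Dgat2 of the other branch. The counting interval lay wholly past 2-fold for Sc5d, Scd1 and Dgat2, and reached below 2-fold for Acat2, Mvd and Thrsp. At least a 1.5-fold higher level was found for 9 of 22 cholesterol genes (40.9%) and 4 of 19 fatty acid and triglyceride genes (21.1%), against 16.5% of all genes, and at least a 1.5-fold lower level for 0, against 14.8%. Most of these genes are well read, and large differences are rarer among such genes. With at least 100 reads in each library, a filter chosen after seeing the data, 9.51% of 12055 genes were at least 1.5-fold higher and 8.14% lower. The cholesterol share of 40.9% lay above these shares of all genes. The 41 genes were chosen with earlier results of these data known, so that comparison is not independent of the choice. With library totals in place of TMM, 6 of the 22 cholesterol genes, not 9, were past 1.5-fold. The share of the other branch was 4 of 19, or 3 of 18 with that filter.

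The counting interval lay wholly above 0 for 16 of 22 cholesterol genes (72.7%) and below 0 for 4 (18.2%), against 28.8% and 27.9% of all genes tested and 33.5% in each direction with at least 100 reads in each library. In the fatty acid and triglyceride branch it lay above 0 for 9 of 19 genes (47.4%), below 0 for 4 (21.1%) and spanned 0 for 6. Counted by reads instead of by genes the picture differed. The cholesterol genes together held 38758 reads in ctrl and 56384 in M2, giving a log2 fold difference of 0.47, and the fatty acid and triglyceride genes held 80459 and 116076, a difference of 0.46. The second sum was mostly the desaturase genes Scd1 and Scd2, which took 56.1% of it in ctrl and 66.8% in M2, and without them it held 35309 and 38482 reads, a difference of 0.05 (95% counting interval 0.03 to 0.08).

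**Figure D2:**
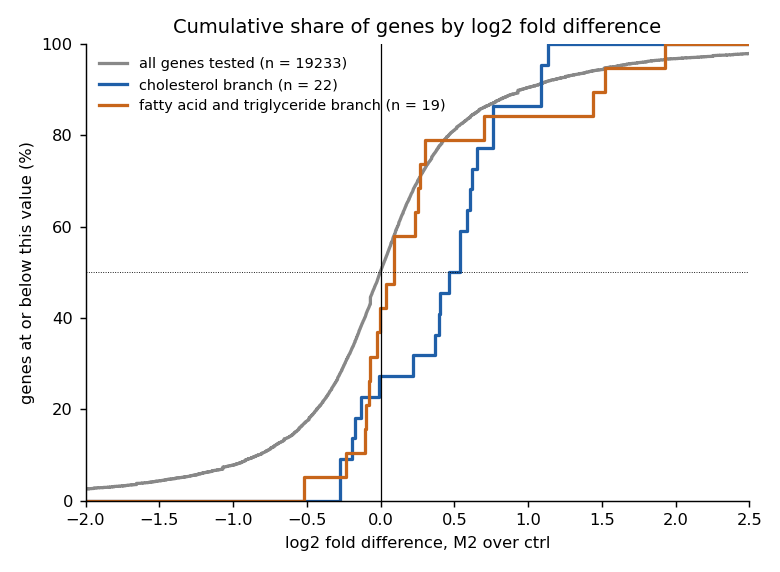
Cumulative share of genes (vertical axis, percent) at or below each log2 fold difference, M2 over ctrl (horizontal axis), for 19233 genes tested, 22 cholesterol genes and 19 fatty acid and triglyceride genes. The cholesterol curve crosses the 50% line at 0.50, to the right of the other branch at 0.09 and of all genes at -0.0032.

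The mevalonate steps stood highest, with a median log2 fold difference of 0.76 over 7 genes and 6 of them at least 1.5-fold higher in M2. The reductase that makes mevalonate is not among the genes described here, so its step is not in this median. Acat2 (chr17:12942890-12960747), the cytosolic thiolase that joins acetyl-CoA units, had 901 reads (32.8 CPM) in ctrl and 2011 reads (69.8 CPM) in M2, giving a log2 fold difference of 1.09 (95% counting interval 0.98 to 1.20). Hmgcs1 (chr13:119690462-119708086), the synthase of the next step, had 7197 and 12776 reads (262 and 443 CPM), a difference of 0.76 (0.72 to 0.80). It had the most reads of the cholesterol branch in both libraries, and per length, as TPM (reads per length, scaled to the same total in each library), its level of 211 in ctrl and 346 in M2 was also the highest of that branch.

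The 3 steps that turn mevalonate into isopentenyl diphosphate did not move alike. Mvk (chr5:114444269-114460591), the first kinase, had 265 and 276 reads and a log2 fold difference of -0.01 (-0.26 to 0.24). Pmvk, the second kinase, had 604 and 973 reads, a difference of 0.62 (0.47 to 0.77). Mvd (chr8:122433601-122443422), the decarboxylase, had 204 and 456 reads, a difference of 1.09 (0.85 to 1.34). The intervals of these 3 genes did not overlap, so counting error alone does not cover their spread. Downstream, the isomerase Idi1 had 818 and 1348 reads (0.65) and farnesyl diphosphate synthase Fdps had 1300 and 2314 reads (0.76). Of the length of Fdps, 26.7% is shared on the same strand with the predicted gene Gm43738, which had 1356 and 2335 reads, so the reads of these 2 genes cannot be told apart there.

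The squalene and sterol steps had a median of 0.46 over 11 genes, with 8 intervals above 0, 2 below 0 and 1 across it. Sc5d (chr9:42251595-42264256), the desaturase that puts a double bond into the sterol ring near the end of the pathway, had 1762 and 4068 reads (64.1 and 141 CPM), a log2 fold difference of 1.14 (1.06 to 1.22), the largest of the cholesterol branch. Lss, which closes squalene epoxide into lanosterol, had 1810 and 2894 reads (0.61, interval 0.52 to 0.69). The methyl sterol oxidase Msmo1 had 1177 and 1855 reads (0.59, interval 0.48 to 0.69), which is barely past 1.5-fold. These were the 3 sterol genes past 1.5-fold.

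A second set of sterol genes lay between 1.1- and 1.5-fold higher. The lanosterol demethylase Cyp51 had 3789 and 5779 reads (0.54), the ketoreductase Hsd17b7 had 1066 and 1621 (0.54), squalene synthase Fdft1 had 2050 and 2968 (0.46) and the sterol dehydrogenase Nsdhl, which works with Msmo1 and Hsd17b7, had 877 and 1218 (0.40). Sqle, the squalene epoxidase and a known control point of the pathway, had 3420 and 4182 reads, a difference of 0.22 (0.16 to 0.29). The ratio of Hmgcs1 to Sqle per length was 3.61 in ctrl and 5.24 in M2, giving a log2 change of 0.54 (0.46 to 0.62), so both genes were higher in M2 but not by the same factor. Of the length of Fdft1, 26.8% is shared with Ctsb on the opposite strand, which had 7474 and 9393 reads, and the use of strand in counting is not stated.

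The 3 sterol genes below 0 were Ebp, Dhcr7 and Tm7sf2. Ebp, the isomerase that acts just before Sc5d, had 839 and 768 reads, a difference of -0.20 (-0.34 to -0.05), and Dhcr7, the reductase that acts just after Sc5d, had 1629 and 1515 reads, a difference of -0.17 (-0.28 to -0.07). Tm7sf2, a sterol reductase, had 194 and 186 reads, a difference of -0.13 (-0.43 to 0.17), and 15.3% of its length is shared with Vps51 on the same strand. Steps that follow one another therefore differed in opposite directions around Sc5d, with intervals that did not overlap.

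**Figure D3:**
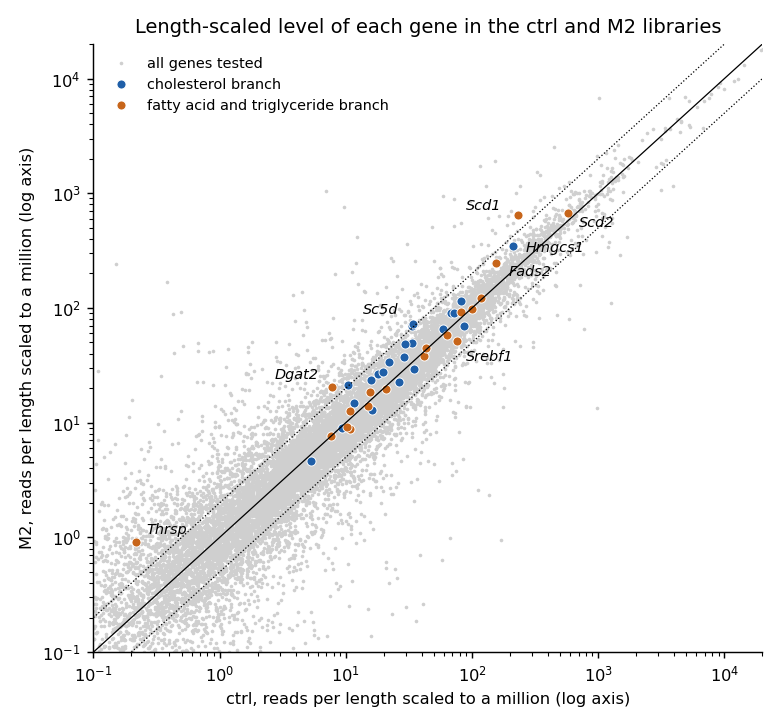
Level of each gene in ctrl (horizontal) and M2 (vertical), in TPM, on log axes, 1 library each. Grey points are genes tested with a level above 0.1 in both libraries; the solid line marks equal levels and the dotted lines a 2-fold difference. Scd1 lies above the upper dotted line at 231 and 643, Scd2 near the line of equal levels at 579 and 675, and most cholesterol genes lie between the solid and the upper dotted line.

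The regulators did not all share the direction of most enzymes. Srebf2 had 4569 and 3956 reads (166 and 137 CPM), a difference of -0.28 (-0.34 to -0.22), and its escort Scap had 1256 and 1091 reads, a difference of -0.27 (-0.39 to -0.15). Srebf1 (chr11:60199089-60222581) had 4542 and 3319 reads (165 and 115 CPM), a difference of -0.52 (-0.59 to -0.46), the lowest of all 41 genes. Insig1, itself known as a target of these factors, had 2351 and 3189 reads, a difference of 0.37 (0.29 to 0.45), and the sterol carrier Stard4 had 680 and 940 reads, a difference of 0.40 (0.25 to 0.54). Srebf1, Srebf2 and Scap were thus lower in M2, and Insig1 and Stard4 were higher. Messenger levels say nothing of the processed form of the Srebf1 and Srebf2 proteins, which was not measured here. Of the length of Scap, 13.2% is shared with 5830462I19Rik on the opposite strand (292 and 220 reads).

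The core of fatty acid synthesis differed little. Acly, which makes cytosolic acetyl-CoA from citrate, had 5590 and 5854 reads (204 and 203 CPM), a difference of -0.0026 (-0.06 to 0.05). Acaca, the carboxylase, had 2718 and 2715 reads, a difference of -0.07 (-0.15 to 0.01), and Fasn, fatty acid synthase, had 4830 and 4809 reads, a difference of -0.08 (-0.13 to -0.02). Acss2, which makes acetyl-CoA from acetate, had 825 and 887 reads (0.04, interval -0.10 to 0.17). The signs of these 4 small values depend on the scaling or on a correction for gene length, so no direction is given. The counting intervals of all 4 lie within -0.15 and 0.17, while spread between cultures, which was not measured, could be wider. Me1, the malic enzyme that supplies NADPH, had 3300 and 4072 reads, a difference of 0.23 (0.17 to 0.30).

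Thrsp, a small protein known to accompany lipogenesis, had the largest value of the 41 genes and the fewest reads. It had 5 reads in ctrl and 23 in M2, giving a log2 fold difference of 1.93 with an interval of 0.71 to 3.88. Per length its level was 0.22 and 0.92, far below that of Fasn at 41.8 and 38.4.

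The desaturase genes Scd1 and Scd2 had the highest levels of the 41 genes in both libraries, and Scd1 had the largest difference after Thrsp. Scd1 (chr19:44394451-44407709), a desaturase that makes oleate and palmitoleate, had 11787 reads (429 CPM) in ctrl and 35535 reads (1233 CPM) in M2, giving a 2.87-fold difference or 1.52 on the log2 scale (1.49 to 1.55). Its neighbour and paralog Scd2 (chr19:44293676-44306864) had 33363 and 42059 reads (1215 and 1459 CPM), a difference of 0.26 (0.24 to 0.29). Per length, the ratio of Scd1 to Scd2 was 0.40 in ctrl and 0.95 in M2, giving a log2 change of 1.26 (1.22 to 1.29), so that Scd2 led in ctrl and the pair was nearly level in M2. The paralogs are similar and may share reads. A miRNA gene inside Scd2, Mir5114, was listed with 1201 and 1364 reads, and how reads in overlapping genes were counted is not stated.

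Fads2 adds a double bond early in the route to long polyunsaturated chains. It had 2473 and 4225 reads (90.0 and 147 CPM), a difference of 0.70 (0.63 to 0.78). Its neighbour Fads1, which acts later in the same route, had 4283 and 4779 reads, a difference of 0.09 (0.03 to 0.15). The ratio of Fads2 to Fads1 per length went from 1.32 to 2.03, a log2 change of 0.61 (0.52 to 0.71). The 3 elongase genes among the 41 differed by less than 1.3-fold: Elovl6, which lengthens palmitate, had 1046 and 1352 reads (0.30), Elovl5, which acts on polyunsaturated chains, had 1619 and 1808 (0.09), and Elovl1, which acts on very long saturated chains, had 1838 and 1795 (-0.10). Elovl1 shares 1.94% of its length with Cdc20 on the opposite strand.

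**Figure D4:**
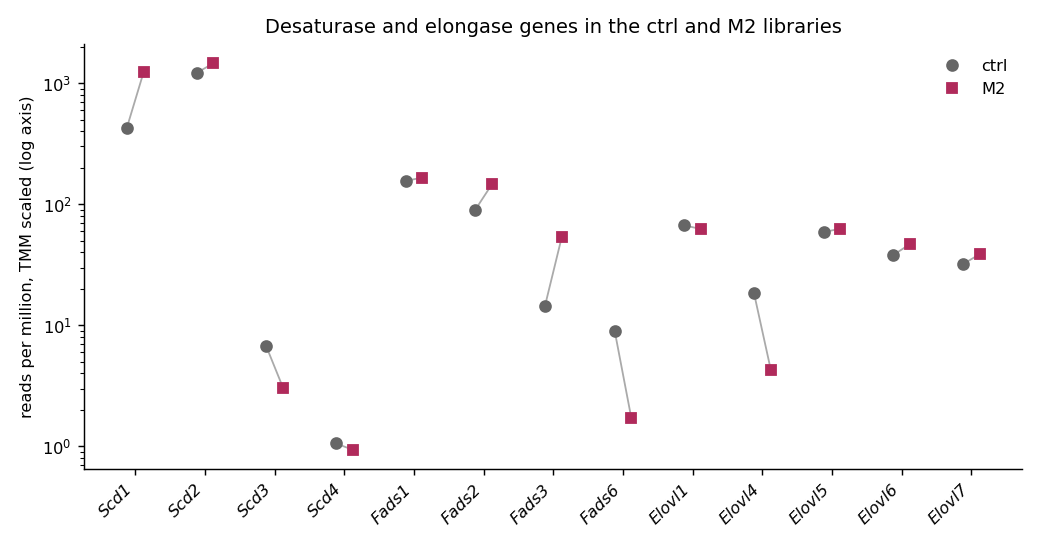
CPM, TMM scaled, on a log axis, of the Scd, Fads and Elovl genes with at least 10 reads in each library, in ctrl (circles) and M2 (squares), 1 library each. Scd1 is at 429 in ctrl and at 1233 in M2, close to Scd2 at 1459; Fads3 is higher in M2, Elovl4, Fads6 and Scd3 are lower, and Fads1, Elovl1 and Elovl5 are nearly level.

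In the triglyceride steps, 1 gene of 5 stood apart. Dgat2 (chr7:99153658-99182719), which adds the last fatty acid to make triglyceride, had 255 and 727 reads (9.28 and 25.2 CPM), a difference of 1.44 (1.23 to 1.65). Dgat1, which catalyses the same reaction, had 665 and 687 reads, a difference of -0.02 (-0.18 to 0.13). Per length, the ratio of Dgat2 to Dgat1 was 0.38 in ctrl and 1.05 in M2, giving a log2 change of 1.46 (1.21 to 1.72). Of the enzymes of the earlier steps, the acyltransferase Gpam had 436 and 388 reads (-0.24, interval -0.44 to -0.04), Agpat2 had 228 and 223 (-0.10, interval -0.37 to 0.17) and the phosphatase Lpin1 had 656 and 819 (0.25, interval 0.10 to 0.40). These 3 genes were therefore within 1.2-fold in these libraries, while Dgat2 was 2.71-fold higher. Other genes of the earlier steps, outside the 41, differed by more, such as Agpat5 at 0.37 (0.21 to 0.53) and Gpat4 at 0.29 (0.18 to 0.41) on the higher side and Agpat4 at -0.43 (-0.81 to -0.05) on the lower side, all named after their values were seen.

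Other sterol genes, outside the 41, went both ways. Of 28 listed genes 26 had enough reads, with a median of -0.0054. At least a 2-fold higher level was found for 3 (11.5%) and a lower level for 1, against 9.53% and 7.82% of all genes tested. The counting interval lay above 0 for 10 genes, below 0 for 8 and spanned 0 for 8. Aacs (0.76) and Tmem97 (0.57) were above 0, and Insig2 (-0.50) and Fdxr (-0.72) below it, all named after their values were seen. The higher genes were the oxysterol hydroxylase Cyp7b1 (94 and 274 reads, 1.46), Gramd1b, which moves cholesterol between membranes (45 and 128 reads, 1.42), and Ch25h, which makes an oxysterol (1 and 22 reads, interval 1.76 to 9.76). The lower gene was Cyp27a1, another sterol hydroxylase, with 31 and 2 reads (interval -7.13 to -2.05). Ch25h and Cyp27a1 were named after their values were seen.

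Of 40 other fatty acid and triglyceride genes 36 had enough reads, with a median of 0.11. At least a 2-fold higher level was found for 3 (8.33%) and a lower level for 6, against 9.53% and 7.82% of all genes tested. The higher ones included Fads3, a member of the Fads family (397 and 1536 reads, 1.88), and Acsl4, which activates polyunsaturated fatty acids (3250 and 7484 reads, 1.13). The lower ones included Fads6 (247 and 49 reads, -2.38), the elongase of very long chains Elovl4 (504 and 124 reads, -2.08), the acyl-CoA synthetase Acsl1 (1415 and 611 reads, -1.28) and Scd3 (184 and 88 reads, -1.12). Families therefore held members on both sides of 0, among the Scd genes, the Fads genes and the acyl-CoA synthetases. The remaining genes past 2-fold, named after their values were seen, had few reads: Pparg (9 and 46), Acsl6 (40 and 3) and Ppara (45 and 14).

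Fatty acid oxidation, the opposite pathway, was checked with 18 genes, all with enough reads. None was at least 2-fold apart in either direction, against 9.53% higher and 7.82% lower of all genes tested. With at least 100 reads in each library, 511 and 356 of 12055 genes were. The median was -0.07. The counting interval lay above 0 for 2 genes (11.1%), below 0 for 7 (38.9%) and spanned 0 for 9, against 28.8% above and 27.9% below over all genes tested. The gene farthest from 0 was Cpt1a, named after its value was seen, which admits fatty acids to mitochondria and had 3864 and 2647 reads, a difference of -0.61.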

How the data were processed

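The authors deposited a table of unnormalized read counts for each gene, from 1 ctrl and 1 M2 library. The labels name the builds GRCm38 and mm10 and a SMARTER library kit, whereas the aligner, counter, strandedness and filtering of reads are not given in the sources used here. The methods name RNAiso Plus where the labels name a column kit, and the series text calls the data a microarray, although the values are sequencing counts. All 41 genes overlap the gene of that name in GENCODE M21, 31 of them with the same start and end. The groups come from the sample labels. The 41 genes and all lists were chosen with earlier results of these data known. The text names all 41 genes, up to 6 genes with the largest differences and at least 100 reads in one library from each other pathway list, and marker genes. Gpat3 was matched to an older symbol.

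Library sizes (26912610 and 29413844 reads) were scaled by TMM in edgeR 4.0.16 under R 4.3.3, with factors of 1.02 and 0.980. Log2 fold differences used a pseudocount of 1 read. Genes with at least 10 reads over both libraries (19233) were compared, and a gene past 2-fold was counted. With 1 library per group no dispersion can be estimated, so no count model was fitted and no p-value is given. Intervals are 95% Clopper-Pearson intervals of a gene's share of reads, or Wald intervals for a ratio of 2 genes. No molecular identifiers are stated, so intervals cover counting error only. Levels per length (TPM) divide reads by the length in the table. The functions were tested on simulated data. Alternatives were 4 other scalings, including DESeq2 1.42.0 size factors, 2 pseudocounts, 3 read filters, other fold thresholds, removal of a trend with gene length and other branch summaries.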

Additional observations from a re-analysis of the deposited data

How the results depend on the processing

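All 41 genes, or 40 where a filter removed Thrsp, stayed on their side of 2-fold under the other scalings, pseudocounts, filters and the length correction. Only Acly, Acaca, Acss2 and Fasn changed sign under any of these. With library totals in place of TMM the median of all genes was -0.06, and 6 cholesterol genes, not 9, were past 1.5-fold. Counts over all genes depend on the threshold and filter: 3174 higher and 4001 lower with at least 1 read, 806 and 579 with 1 CPM in both libraries, 511 and 356 with 100 reads in each library, 3179 and 2842 at 1.5-fold, and 616 and 494 at 4-fold. Of the 41 genes, 13 were higher at 1.5-fold and 0 at 4-fold. The branches differed by medians but not by summed reads, where the fatty acid and triglyceride value was 0.46 and the difference 0.012. Without Scd1 and Scd2, a choice made after seeing the data, that difference was 0.42. No paired analysis was possible because only 1 library was made per condition, and a Wald test in DESeq2 was not run for the same reason. Depth limits Thrsp most, at 5 and 23 reads. The counting intervals of Acat2 and Mvd reach below 2-fold, and those of 8 genes span 0, among them Mvk, Tm7sf2 and Agpat2. The direction of these 8 could not be told from these reads. For Acly, Acaca and Acss2 among them, and for Fasn outside them, the sign also changed with the processing.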

Other observations

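Genes of milk fat secretion, the main outlet of triglyceride in the lactating gland, and of milk protein went both ways. Of 8 listed genes, fat and protein together, 7 had enough reads. Their median log2 fold difference was 0.94, against -0.0032 over all genes tested. Xdh, which lines milk fat globules, had 1364 and 2808 reads in ctrl and M2, a difference of 0.97, and Plin2, which coats lipid droplets, had 3090 and 6216, a difference of 0.94. Btn1a1, a partner of Xdh on the globule membrane, had 4030 and 619 reads, a difference of -2.77. The partners thus differed in opposite directions. Cidea, also in the list, had 37 and 68 reads, a difference of 0.79. Of the milk protein genes in the list, Csn3 had 5916 and 16755 reads (1.43), Csn2 had 2 and 138 (counting interval 4.16 to 9.10), and Lalba had 67 and 29 (-1.25). The milk protein genes also mark luminal cells, and the part of cell composition in the values of all the listed genes was not tested.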
